A study of Homo sapiens with 12 samples.

Results

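The 8 libraries described here come from A172 cells, an established human glioblastoma line, transfected with siRNA-2 against uc.110 (4 libraries) or with a scrambled control siRNA (4 libraries). They are 8 of the 12 libraries of the series, and the other 4 received siRNA-1, a separate siRNA against uc.110, which serves below only for a direct comparison. Every gene row of the deposited table was considered, and the ultraconserved and random control regions were set aside. Of 48769 gene intervals 44353 could be used, and 24884 had enough reads to be tested. The labels name A172 cells as the source of all 8 libraries, and the groups differ by the siRNA alone. Each culture received 3 µL of a 20 µM siRNA stock with 9 µL of a Lipofectamine reagent for 6 h, and RNA was taken on day 2. The labels do not say that replicates are separate cultures. The p-values therefore reflect spread among these libraries only, and that spread may be technical.

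uc.110 belongs to the ultraconserved regions, stretches of genome without a difference between human and rodents, some of which are transcribed. An siRNA is a short RNA duplex that the protein complex built around Argonaute uses to find and cut an RNA with a matching sequence. Transfected duplexes can also be sensed by innate receptors for double-stranded RNA in the cytoplasm and in endosomes, and such sensing leads to type I interferon, to the JAK-STAT pathway and to a large set of interferon-stimulated genes. Glioblastoma is the most aggressive of the common brain tumours of adults, and A172 is a line of mesenchymal character.

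The 8 libraries held 43422974 to 54572049 counts over the gene intervals used. Reads of 45S ribosomal RNA made up 2.09% to 5.01% of 7 libraries and 8.34% of siRNA-2 replicate 2. Intervals covered in a single library alone numbered 1555 for scrambled replicate 1 and 86 to 166 for each of the other 7. In a principal component analysis of all 12 libraries the first component, with 68% of the variance, separated the scrambled libraries from the siRNA libraries, and the second, with 15.66%, separated siRNA-1 from siRNA-2. The mesenchymal markers VIM, CD44 and AXL lay at 486 CPM (read counts scaled to library size) or above in every scrambled and siRNA-2 library, while TNC did not pass 7.84 CPM. Of the glial markers, GFAP lay at 5.84 to 7.62 CPM, in an interval where an overlapping gene has more reads, and OLIG2 at 4.19 to 10.5 CPM, and SOX10 stayed under the filter. CD3E and SNAP25 were under the filter too, and CDH5, RBFOX3 (overlapped by a gene with more reads), MBP, CDH1 and EPCAM did not pass 1.46 CPM. The epithelial keratin KRT5 was present, at 8.05 to 17.8 CPM in scrambled and 20.2 to 26.6 CPM in siRNA-2 libraries. Other markers of neurons, vessels and epithelium (SYT1, TEK, KRT8 and KRT18) were well expressed and are given below.

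Each interval runs over the whole gene, introns included, and where intervals overlap the same read counts for both, on either strand. Genes named below were therefore restricted to those in which no overlapping interval held more than 50% of the gene's own reads, except where stated. uc.110 itself (chr2:236162738-236162980, hg38) was covered by 4, 0, 1 and 6 reads under scrambled siRNA and by 3, 0, 4 and 0 reads under siRNA-2. That gives a ratio of 0.593 with a 95% exact Poisson interval of 0.195 to 1.68, so a difference was not detectable at this depth. The transcript LOC105373944, whose interval holds uc.110, lay at 0.577 CPM in scrambled and 0.243 CPM in siRNA-2 libraries and fell by 1.24 on the log2 scale (SE 0.33, adjusted p = 0.0027).

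With siRNA-2, 13970 of the 24884 genes tested (56.1%) differed from scrambled at an adjusted p under 0.05. Of these, 7452 rose (29.9% of the genes tested) and 6518 fell (26.2%). Most of the changes were small. The median absolute log2 fold change of the called genes was 0.45, and 8756 of them (62.7%) changed by less than 1.5-fold. At least 2-fold higher were 1578 genes (6.34%) and at least 2-fold lower 580 (2.33%), and 346 of the 388 genes that changed by 4-fold or more were higher. For 12914 genes (51.9%) the 4 siRNA-2 libraries lay entirely to one side of the 4 scrambled libraries. Shares within a gene list are to be read against these backgrounds, since more than every other gene was called. The shares also depended on abundance. Under an average log2 CPM of 0, 17.2% rose and 9.44% fell, and at 6 to 8 38.4% rose and 40.5% fell. Lists of abundant genes are to be read against the latter. Protein-coding genes were called more often than all genes together: of 14498 tested, 5129 rose (35.4%) and 4479 fell (30.9%). Among 4406 long noncoding RNAs 1012 rose (23%) and 858 fell (19.5%). Fitted alone, protein-coding genes gave 4856 rises and 4960 falls.

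**Figure D1:**
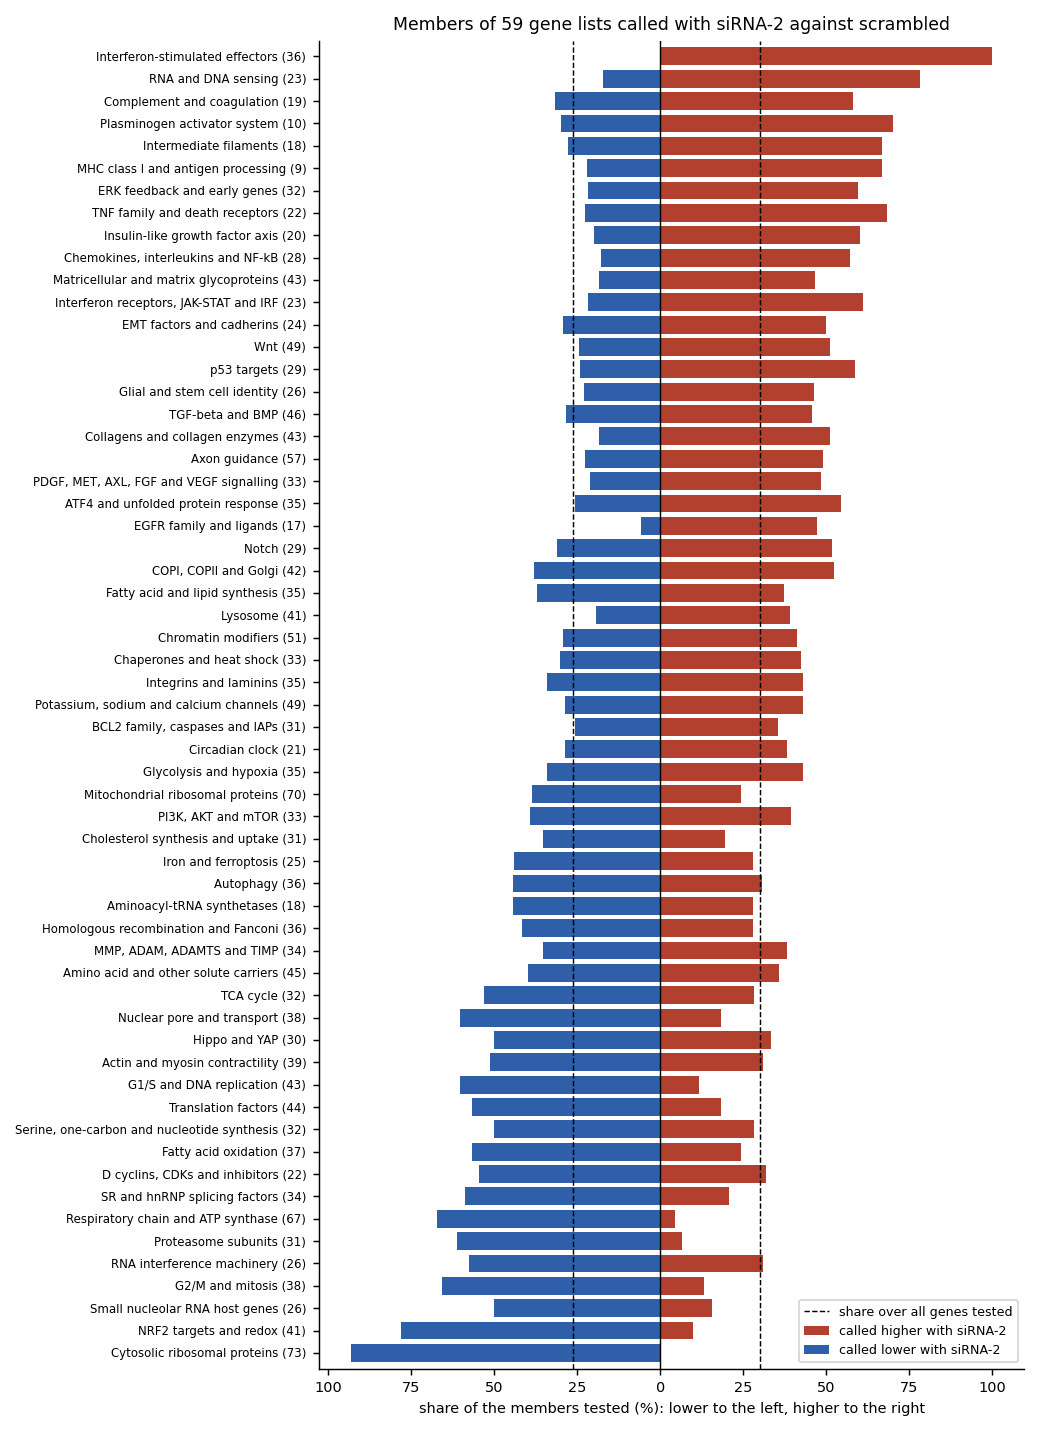
Share of the tested members of 59 gene lists called lower (blue, to the left) and higher (red, to the right) with siRNA-2 against scrambled, in percent. Lists are ordered by their median log2 fold change with the number of members tested in parentheses, and dashed lines mark the shares over all genes tested, 26.2% lower and 29.9% higher. Among genes with an average log2 CPM of 6 to 8 these shares were 40.5% and 38.4%. All 36 interferon-stimulated effectors were called higher, and 68 of 73 cytosolic ribosomal protein genes were called lower.

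The interferon response was the largest coordinated change in size. All 36 interferon-stimulated effector genes tested rose, 31 of them at least 2-fold, with log2 fold changes from 0.12 to 4.82 and a median of 1.85, against a median of 0.01 over all genes. TRIM21, a cytosolic receptor for antibody-bound virus, lay at 32.2, 25.3, 26.9 and 25.1 CPM in the scrambled libraries and at 68.7, 69.8, 69.2 and 72.9 CPM with siRNA-2. The groups were well apart, and the rise was 1.36 on the log2 scale (SE 0.06, adjusted p = 7.0e-15). MX1, a GTPase that traps viral nucleocapsids, rose by 1.15 on the log2 scale (SE 0.07, adjusted p = 8.7e-11), and TRIM5, a retroviral capsid sensor, by 0.73 (SE 0.05, adjusted p = 1.5e-12). ISG20, an exonuclease of viral RNA, rose by 2.95 (SE 0.12, adjusted p = 1.5e-09).

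Summed over the 36 effector genes, the level was 3110, 1937, 2110 and 1746 CPM in the scrambled libraries and 9980, 10413, 10180 and 10596 CPM with siRNA-2. Scrambled replicate 1 was the highest of the scrambled libraries for 33 of the 36 genes. Without that library 35 of the 36 were still called higher and the median was 2.05, and the part of its separate state in the fold changes was not tested. In a separate fit of only the genes that overlap no other interval, 18 of 18 effectors rose.

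Promoter sequences were set beside these values, because most of the list is known to be driven by the interferon-stimulated response element. RefSeq (GRCh38.p14) gave the 250 bases before the start of 26 of the 36 effector genes. The core GAAANNGAAA was present on either strand in 16 of the 26 (61.5%), against 839 of 27305 promoters of the same length in the whole table (3.07%). The 5 stretches below are those of the list members with the core, an interval not dominated by another gene and the greatest fold changes, and they were chosen after the values were seen. Each is the 30 bases around the match nearest to the start, read 5′ to 3′ in the direction of the gene, with the core in capitals.
BST2: ctgggaaactGAAACTGAAAacctaattaa
IFIT1: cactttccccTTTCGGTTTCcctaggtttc
ISG20: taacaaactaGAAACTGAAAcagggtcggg
IFI6: gcagagtgcaGAAATAGAAActccgacagg
IFI44L: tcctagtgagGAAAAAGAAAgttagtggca
In IFIT1 the core is on the opposite strand. The stretches lie at chr19:17405735-17405764 (minus strand), chr10:89392510-89392539, chr15:88638937-88638966, chr1:27672266-27672295 (minus strand) and chr1:78620365-78620394, in the order above. BST2, which tethers budding virions to the membrane, measured 96.5, 46.3, 58.3 and 37.6 CPM in scrambled and 664, 609, 595 and 610 CPM in siRNA-2 libraries. IFIT1, which binds viral RNA caps, measured 109, 44.4, 45.02 and 36.8 CPM against 509, 532, 537 and 561 CPM. IFI6, a mitochondrial antiviral protein, measured 355, 180, 214 and 129 CPM against 1421, 1510, 1361 and 1485 CPM, and IFI44L measured 24.5, 8.71, 7.92 and 4.95 CPM against 71.6, 79.3, 73.8 and 74.1 CPM. In all of these scrambled replicate 1 was the highest control, and it still lay below every siRNA-2 library.

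The core was present in 14 of 115 protein-coding promoters of genes at least 4-fold higher with siRNA-2 (12.2%), interferon list members included. It was present in 25 of 530 of those 2 to 4-fold higher (4.72%) and in 65 of 3467 of those higher by less than 2-fold (1.87%). Among genes not called the core was present in 104 of 3939 (2.64%). Genes lower by less than 2-fold had it in 66 of 3518 (1.88%) and those at least 2-fold lower in 5 of 212 (2.36%). Of 254 tested protein-coding genes with the core that are on none of the interferon and immune lists, 79 rose (31.1%) and 71 fell (28%), and of 11414 such genes without the core 34.6% rose and 31.9% fell. With the list members included, 37.3% of 279 genes with the core rose and 25.4% fell, against 34.8% and 31.8% of 11502 without it.

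Receptors and regulators of the pathway moved less evenly. Of 23 genes of RNA and DNA sensing 18 rose, 4 fell and 1 was not called, with a median log2 fold change of 0.89. TLR3, the endosomal receptor for double-stranded RNA, lay at 5.40, 5.75, 5.42 and 5.26 CPM in scrambled and at 19.3, 18.2, 18.8 and 20.3 CPM in siRNA-2 libraries. The rise of 1.81 on the log2 scale (SE 0.06, adjusted p = 2.4e-17) was large against the spread within either group, and here scrambled replicate 1 did not stand apart. NLRC5, an activator of MHC class I genes, rose by 1.38 (SE 0.06, adjusted p = 4.9e-16) and STING1, the adaptor of DNA sensing, by 0.68 (SE 0.04, adjusted p = 4.1e-13). Among 23 interferon receptor, JAK-STAT and IRF genes 14 rose and 5 fell, with a median of 0.26. IRF2 rose by 0.45, while the receptor chain IFNAR1 fell by 0.32 (SE 0.04, adjusted p = 9.7e-08) and the JAK phosphatase PTPN2 by 0.39. Only 9 genes of MHC class I and antigen processing had a usable interval with enough reads; 6 rose and 2 fell. PSMB10, a subunit of the immunoproteasome, rose by 0.64 and CALR, a chaperone of the peptide loading complex, by 0.36.

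Secreted and membrane genes of immunity split. Of 19 complement and coagulation genes 11 rose and 6 fell, with a median of 0.76. C1R, a protease of the first complement component, measured 37.5, 30.05, 30.8 and 35.3 CPM in scrambled and 101, 95.4, 95.5 and 97.8 CPM in siRNA-2 libraries, a rise of 1.54 (SE 0.05, adjusted p = 2.4e-16). Its partner C1S rose by 1.24 (SE 0.05). The complement regulators went apart: CD55, which dissolves the convertase, rose by 0.76, and CD46 fell by 0.70 (SE 0.06, adjusted p = 4.3e-08). Of 28 chemokine, interleukin and NF-kB genes 16 rose and 5 fell. IL11, a cytokine of the IL6 family, rose by 1.99 (SE 0.09, adjusted p = 2.2e-15), CSF1 by 0.58 and CXCL16 by 1.18, whereas the monocyte chemokine CCL2 fell by 0.98 (SE 0.08, adjusted p = 1.9e-08) and the NF-kB target BIRC3 by 0.89. Of 22 TNF family and death receptor genes 15 rose, among them TNFSF4 (0.72) and TNFRSF1A (0.63), and 5 fell, among them the decoy receptor TNFRSF11B (-0.92).

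**Figure D2:**
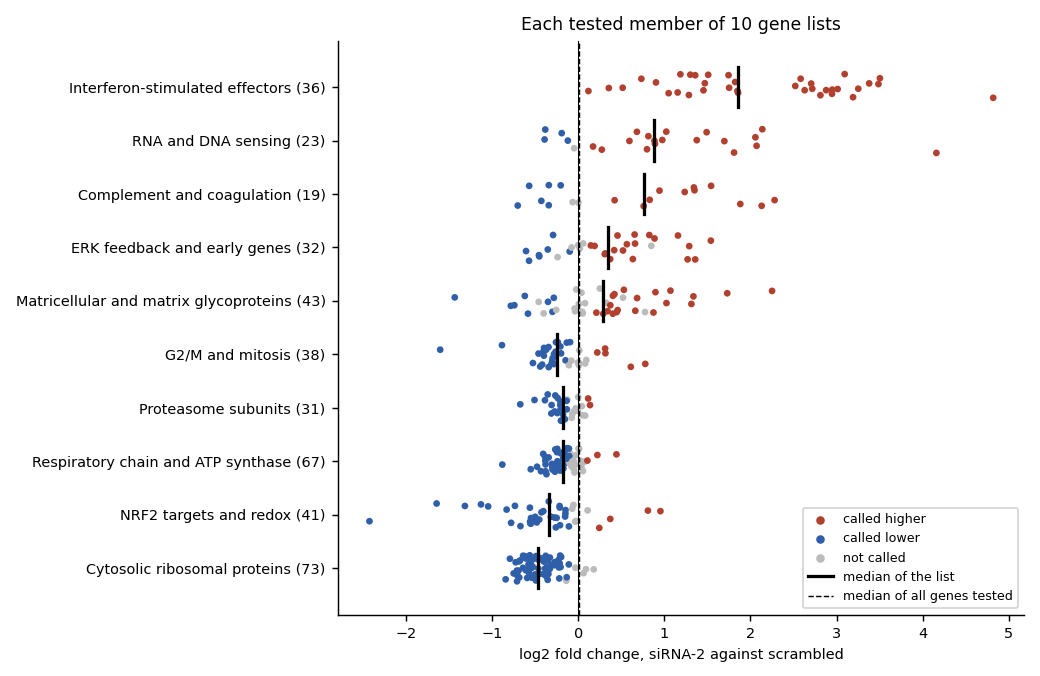
Log2 fold change with siRNA-2 against scrambled of each tested member of 10 gene lists, with the number of members in parentheses. Red points were called higher, blue points lower and grey points neither, thick bars mark list medians and the dashed line the median of all genes (0.01). The effector genes spread from 0.12 to 4.82, while the ribosomal protein genes lie in a narrow band around -0.46.

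The genes of the translation apparatus fell together by a modest amount. Of 73 cytosolic ribosomal protein genes 68 fell, none rose and 5 were not called (FAU, RPS28, RPS27, RPL28 and RPS29, named here because they are the exceptions). Their log2 fold changes ran from -0.84 to 0.18 with a median of -0.46, and for 66 of the 73 the groups did not overlap. Summed over the list, the level was 14356, 14828, 15920 and 16009 CPM in the scrambled libraries and 11042, 11136, 12144 and 11725 CPM with siRNA-2, a ratio of 0.754. RPLP0, of the ribosomal stalk, measured 238, 253, 270 and 273 CPM in scrambled and 153, 154, 172.3 and 169 CPM in siRNA-2 libraries, a fall of 0.67 on the log2 scale (SE 0.04, adjusted p = 3.3e-12). RPS4X measured 372, 407, 408 and 416 CPM against 241, 245, 279 and 264 CPM, a fall of 0.64 (SE 0.05, adjusted p = 9.0e-12). No siRNA-2 library reached the lowest scrambled library in either gene. RPS3A fell by 0.84 and RPS20 by 0.55. Of these genes 65 span no more than 20 kb, a length class in which protein-coding genes as a whole rose more often than they fell (below). When only intervals without any overlap were fitted, 20 of 21 fell, at a median of -0.54.

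Of 44 translation factor genes 25 fell and 8 rose. EEF1A1, the factor that brings aminoacyl-tRNA to the ribosome and one of the most abundant transcripts, measured 1638, 1780, 1768 and 1806 CPM in scrambled and 1079, 1086, 1192 and 1129 CPM in siRNA-2 libraries, a fall of 0.64 (SE 0.04, adjusted p = 2.1e-12). EIF3C fell by 0.68 and EIF4G2 by 0.59. The genes of the proteins that hold back the cap-binding factor went apart: the less abundant EIF4EBP1 rose by 0.52 (SE 0.05, adjusted p = 9.3e-10), from a mean of 30.02 to 43.01 CPM, and EIF4EBP2 fell by 1.18 (SE 0.04, adjusted p = 9.4e-18), from 143 to 63.2 CPM. Of 26 small nucleolar RNA host genes, many of which carry the same terminal oligopyrimidine start as ribosomal protein genes, 13 fell, 4 rose and 9 were not called. SNHG5 fell by 0.53. Of 18 aminoacyl-tRNA synthetase genes 8 fell and 5 rose: LARS1 went from 169, 182, 174 and 187 CPM to 92.1, 98.0, 104 and 98.7 CPM, and WARS1, which interferon induces, from 65.9, 62.6, 61.5 and 63.4 CPM to 129, 129, 135 and 144 CPM. Mitochondrial ribosomal protein genes did not share the shift of the cytosolic ones: 27 of 70 fell, 17 rose, and their median was -0.01. MRPL3 was among those that fell (by 0.65, SE 0.05).

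Transcripts of many genes of other abundant housekeeping machines were lower too. Of 34 SR and hnRNP splicing factor genes 20 fell and 7 rose, with HNRNPA3 lower by 0.47 on the log2 scale against a rise of 0.68 for HNRNPD (SE 0.04, adjusted p = 6.0e-14) and of 0.44 for SRSF4. Among 38 nuclear pore and transport genes 23 fell and 7 rose: NUP107 fell by 0.47 and IPO5 by 0.53, and NUP93 rose by 0.33. Of 31 proteasome subunit genes 19 fell and 2 rose, with log2 fold changes from -0.67 to 0.14 over the list. PSME4, a proteasome activator, fell by 0.51, PSMA1 by 0.35 and PSMD2 by 0.31, and PSMD6 rose by 0.14 (SE 0.04, adjusted p = 0.0025).

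Transcripts of many genes of mitochondrial energy metabolism were lower. The 67 nuclear genes of the respiratory chain and ATP synthase had 45 that fell, 3 that rose and 19 not called, with a median of -0.17. ATP5PB, of the ATP synthase stalk, measured 79.3, 87.6, 91.3 and 95.3 CPM in scrambled and 44.9, 47.1, 49.996 and 49.9 CPM in siRNA-2 libraries, and its fall of 0.88 (SE 0.05, adjusted p = 3.5e-13) was the greatest of the list. COX7C, of cytochrome c oxidase, fell by 0.38, and NDUFA5, of complex I, rose by 0.44 (SE 0.05, adjusted p = 1.0e-08). Of 32 citric acid cycle genes 17 fell and 9 rose, for example SDHC by 0.62 downwards and IDH3A by 0.65 upwards. Of 37 fatty acid oxidation genes 21 fell and 9 rose, with HADHB lower by 0.63 (SE 0.04, adjusted p = 4.5e-12) and ACAA2 by 0.58.

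The list with the greatest share of falls after the ribosomal proteins was that of NRF2 targets and redox genes, of which 32 of 41 fell and 4 rose, at a median of -0.34. FTH1, the ferritin heavy chain, measured 423, 459, 442 and 456 CPM in scrambled and 272, 265, 271 and 263 CPM in siRNA-2 libraries, a fall of 0.73 (SE 0.04, adjusted p = 3.6e-14). The glutathione reductase GSR fell by 0.67 (SE 0.04), and the iron exporter SLC40A1 rose by 0.95 from a low level. Iron genes as a list were mixed, with 11 of 25 lower and 7 higher. TFRC, the transferrin receptor, measured 134, 156, 148 and 149 CPM in scrambled and 65.4, 65.7, 69.0 and 66.7 CPM in siRNA-2 libraries, a fall of 1.14 (SE 0.05, adjusted p = 4.5e-16), while the endosomal ferrireductase STEAP3 rose by 1.30 (SE 0.04, adjusted p = 1.0e-17).

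Of 31 cholesterol genes 11 fell, 6 rose and 14 were not called. HMGCS1, an early enzyme of the pathway, measured 162, 183, 180 and 171 CPM in scrambled and 91.2, 102, 96.0 and 100 CPM in siRNA-2 libraries, lower by 0.84 on the log2 scale (SE 0.04, adjusted p = 1.4e-14), and INSIG1 was lower by 0.74. Among 32 genes of serine, one-carbon and nucleotide synthesis 16 fell and 9 rose, with the methionine synthase MTR lower by 0.86 and AHCY by 0.47. Glycolysis and hypoxia genes had no common direction (15 higher and 12 lower of 35, median -0.01), and the lactate dehydrogenase LDHA fell by 0.49 (SE 0.04, adjusted p = 5.2e-10).

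**Figure D3:**
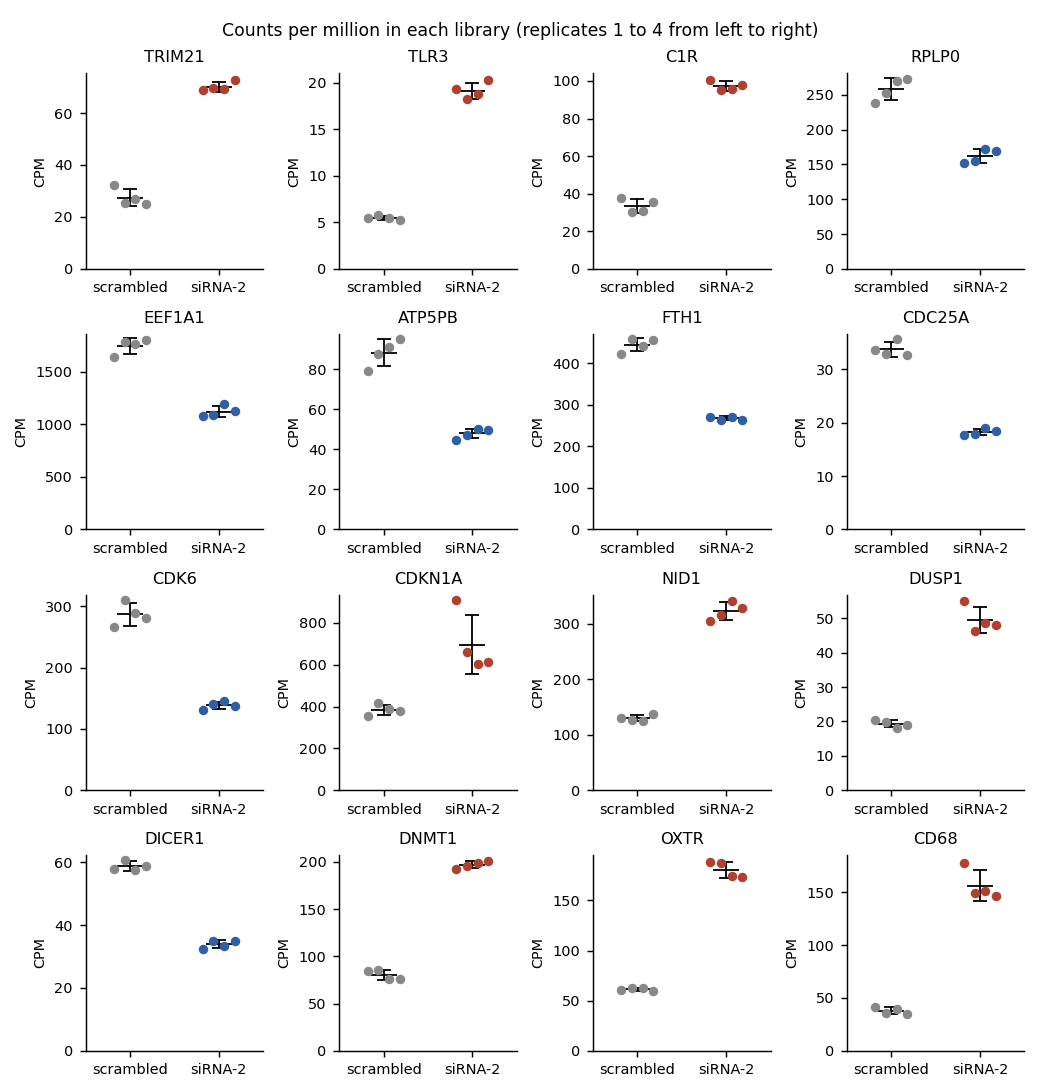
CPM of 16 genes in each of the 4 scrambled libraries (grey) and the 4 siRNA-2 libraries (red where the gene rose, blue where it fell), with replicates 1 to 4 from left to right, and the mean and SD in black. In every panel the siRNA-2 libraries lie entirely above or below the scrambled ones. In CDKN1A siRNA-2 replicate 1 lies at 908 CPM and the others at 605 to 661 CPM.

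Proliferation genes were lower in both stages of the cycle. The G1/S and replication list held 26 genes that fell and 5 that rose of 43, and the G2/M list 25 and 5 of 38 (median -0.25). CDC25A, a phosphatase that activates CDKs, measured 33.6, 32.9, 35.7 and 32.6 CPM in scrambled and 17.7, 17.8, 19.03 and 18.4 CPM in siRNA-2 libraries, a fall of 0.88 (SE 0.05, adjusted p = 1.0e-13). The groups were well apart. RRM1, of ribonucleotide reductase, fell by 0.54. The polymerase delta gene POLD1 rose by 0.69. Among the drivers and brakes of G1, 12 of 22 fell and 7 rose. CDK6 measured 267, 310, 289 and 281 CPM in scrambled and 131, 141, 145 and 138 CPM in siRNA-2 libraries, a fall of 1.05 (SE 0.05, adjusted p = 1.6e-14), and SKP2, which marks CDK inhibitors for destruction, fell by 0.81. CDKN1A, the inhibitor p21, measured 357, 415, 389 and 376 CPM against 908, 661, 605 and 613 CPM. Its rise of 0.86 (SE 0.13, adjusted p = 0.00034) was larger than the spread in spite of the high replicate 1.

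DNA repair and cell death genes were mixed. Of 36 homologous recombination and Fanconi genes 15 fell and 10 rose, with ATR lower by 0.57, FANCD2 lower by 0.37 and RAD50 higher by 0.29. Of 29 p53 target genes 17 rose and 7 fell: PLK2 rose by 0.46 (SE 0.04, adjusted p = 1.2e-10) and ZMAT3 fell by 1.15 (SE 0.08, adjusted p = 1.4e-08). Of 31 genes of the BCL2 family, caspases and their inhibitors 11 rose, 8 fell and 12 were not called, against 9 and 11 without scrambled replicate 1, and the inflammatory caspase gene CASP4 rose by 0.65.

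Proteostasis lists had no single direction. Of 33 chaperone genes 14 rose and 10 fell. HSP90AA1, the inducible HSP90, lay at 715, 713, 707 and 716 CPM in scrambled and 1015, 1028, 1003 and 1015 CPM in siRNA-2 libraries, a rise of 0.51 (SE 0.03, adjusted p = 8.2e-13), and DNAJB1 rose by 0.51. Of 35 ATF4 and unfolded protein response genes 19 rose and 9 fell, but 4 rose and 6 fell of 16 when only intervals without any overlap were fitted. TRIB3, an ATF4 target, rose by 0.70, and EDEM1, which takes misfolded glycoproteins out of the endoplasmic reticulum, measured 139, 148, 135 and 149 CPM in scrambled and 66.8, 76.9, 74.1 and 69.3 CPM in siRNA-2 libraries, a fall of 0.99 (SE 0.05, adjusted p = 1.4e-13). Of 41 lysosomal genes 16 rose, among them the protease gene CTSL (0.89), and 8 fell, among them ARSB (-0.90). Of 36 autophagy genes 16 fell, among them the mitophagy receptor BNIP3L (-0.59), and 11 rose, among them the starting kinase ULK1 (0.81). The coat and Golgi list gave 22 higher and 16 lower of 42, a majority that was lost with the factors of DESeq2 (17 and 17). SAR1B, the GTPase of COPII vesicles, rose by 0.92 and the membrane-bound transcription factor CREB3L2 fell by 0.67.

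Matrix and secreted genes leaned upwards. Of 43 collagens and collagen enzymes 22 rose, 8 fell and 13 were not called, with the lysyl hydroxylase PLOD1 and the collagen chaperone SERPINH1 higher by 0.66 and 0.67 and COL14A1 lower by 0.82. Of 43 matricellular and matrix glycoprotein genes 20 rose and 8 fell. NID1, which links laminin to collagen IV in basement membranes, measured 130, 126, 124 and 138 CPM in scrambled and 304, 316, 341 and 327 CPM in siRNA-2 libraries, a rise of 1.31 (SE 0.04, adjusted p = 3.7e-18). MATN2 rose by 1.34, and TGFBI fell by 1.43 (SE 0.09, adjusted p = 2.0e-12). In a fit of only the intervals without any overlap the matricellular list was 6 higher and 4 lower of 17, with a median of -0.01. Integrins and laminins were mixed, with 15 higher and 12 lower of 35: TLN1, which couples integrins to actin, rose by 1.47 (SE 0.05, adjusted p = 4.6e-18) and ITGB8 fell by 0.89.

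Matrix protease genes had no common direction, with 13 higher and 12 lower of 34. MMP13, collagenase 3, measured 0.656, 0.740, 0.685 and 0.543 CPM in scrambled and 5.72, 6.34, 6.86 and 6.69 CPM in siRNA-2 libraries, a rise of 3.28 (SE 0.15, adjusted p = 3.8e-15). MMP17 rose by 1.15 and MMP16 fell by 1.39, so that the membrane-bound members went both ways. Of 10 genes of the plasminogen activator system 7 rose and 3 fell. SERPINE2, an inhibitor of thrombin and of plasminogen activators, measured 244, 229, 242 and 256 CPM in scrambled and 626, 628, 599 and 610 CPM in siRNA-2 libraries, a rise of 1.34 (SE 0.04, adjusted p = 1.6e-18). S100A10, of a plasminogen receptor complex, fell by 0.71. Of 20 genes of the insulin-like growth factor axis 12 rose and 4 fell, with the binding proteins IGFBP6 and IGFBP2 higher by 0.82 and 0.75.

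In growth factor signalling, genes of the EGFR family and its ligands were 8 higher and 1 lower of 17, with ERBB2 higher by 0.49 (SE 0.03, adjusted p = 5.8e-12) and NRG2 by 1.40. The list of PDGF, MET, AXL, FGF and VEGF signalling held 33 genes, of which 16 were higher and 7 lower. Its 18 receptor tyrosine kinases were 8 higher and 6 lower, with the collagen receptor DDR2 lower by 0.85, and its 15 ligands and neuropilins 8 higher and 1 lower. Of 32 ERK feedback and early genes 19 rose and 7 fell, at a median of 0.34. In a fit of only the intervals without any overlap 9 rose and 5 fell of 19, with a median of 0.01. DUSP1, a phosphatase of MAP kinases, measured 20.4, 19.8, 18.1 and 18.9 CPM in scrambled and 55.1, 46.3, 48.8 and 48.1 CPM in siRNA-2 libraries, a rise of 1.36 (SE 0.06, adjusted p = 6.4e-15). DUSP6, the ERK phosphatase, rose by 1.29, JUN by 0.83 and FOSL1 by 0.63, while KLF4 fell by 0.61, ETV1 by 0.46 and JUNB by 0.29. EGR1 and IER2 were not called. PI3K, AKT and mTOR genes were 13 higher and 13 lower of 33, with FOXO3 higher by 0.76 and the catalytic subunit PIK3CB lower by 0.80.

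Developmental pathways were changed in both directions. Of 46 TGF-beta and BMP genes 21 rose and 13 fell. ID1, a direct BMP target, measured 58.6, 53.3, 60.7 and 59.3 CPM in scrambled and 129, 120, 128 and 125 CPM in siRNA-2 libraries, a rise of 1.11 (SE 0.04, adjusted p = 3.9e-17). The activin antagonist FSTL3 rose by 1.20, and the receptor ACVR2B fell by 1.52 (SE 0.07, adjusted p = 4.3e-15). Hippo and YAP genes were 15 lower and 10 higher of 30. AMOT, an adaptor that retains YAP in the cytoplasm, measured 16.0, 16.0, 16.4 and 14.6 CPM in scrambled and 5.10, 4.36, 4.78 and 4.60 CPM in siRNA-2 libraries, a fall of 1.74 (SE 0.07, adjusted p = 3.2e-16). PTPN14 fell by 1.04. Of the YAP targets CCN1 fell by 0.62, ANKRD1 by 0.65 and AXL by 0.29. AMOTL2 rose by 0.49, and CCN2 was not called (0.04, SE 0.04, adjusted p = 0.47). Notch genes were 15 higher and 9 lower of 29, with NOTCH3 and DTX1 higher by 0.92 and 1.16 and the fringe enzyme MFNG lower by 1.46. A fit of only the intervals without any overlap gave 1 higher and 4 lower of 8 Notch genes. Wnt genes were 25 higher and 12 lower of 49, with DVL2 and FZD2 higher by 0.82 and 0.69.

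Of 57 axon guidance genes 28 rose and 13 fell. SEMA3B, a secreted semaphorin, rose by 2.07 (SE 0.07, adjusted p = 3.3e-16) and SEMA4F by 1.13, and the netrin receptor UNC5B fell by 1.14. Of 39 actin and myosin genes 20 fell, among them the kinase MYLK (-0.66) and supervillin SVIL (-0.94), and 12 rose, among them RHOB (0.65, SE 0.06). Intermediate filament genes were 12 higher and 5 lower of 18, with the lamin gene LMNB2 higher by 0.84 and the neurofilament gene NEFL lower by 0.82. Genes of EMT factors and cadherins were 12 higher and 7 lower of 24, with PCDH1 higher by 1.47 and CDH11 by 0.93. Glial and stem cell identity genes were 12 higher and 6 lower of 26, with SALL2 and OLIG2 higher by 1.09 and 1.07 and SOX4 lower by 0.43. Solute carriers had 16 higher and 18 lower of 45, among the latter the zinc importer SLC39A10 (-1.12).

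Chromatin modifiers rose in 21 and fell in 15 of 51 genes. DNMT1, the maintenance DNA methyltransferase, measured 84.1, 85.1, 75.6 and 76.3 CPM in scrambled and 192, 195, 199 and 201 CPM in siRNA-2 libraries, a rise of 1.30 (SE 0.04, adjusted p = 3.6e-18). TET3, which oxidizes methylcytosine, fell by 1.19 (SE 0.05, adjusted p = 4.2e-16). Of 26 genes on the list of RNA interference machinery 15 were lower and 8 higher, and use of the siRNA by the cells was not tested. DICER1, which cuts microRNA precursors, measured 57.9, 60.8, 57.4 and 58.9 CPM in scrambled and 32.4, 34.9, 33.5 and 35.1 CPM in siRNA-2 libraries, a fall of 0.79 (SE 0.04, adjusted p = 1.2e-13). AGO1 fell by 1.01 (SE 0.06), the decapping enzyme DCP2 by 1.27 (SE 0.05), and TNRC6A, a partner of Argonaute, rose by 0.70.

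Markers of other cell types were measured as well. Of 13 markers of blood and vessel cells tested 2 rose and 1 fell, and their sum went from 76.8 to 81.2 CPM in scrambled to 186 to 209 CPM in siRNA-2 libraries. That difference came from CD68, a lysosomal membrane protein used as a macrophage marker, which measured 41.6, 36.1, 39.3 and 34.7 CPM in scrambled and 178, 149, 152 and 146 CPM in siRNA-2 libraries (log2 fold change 2.04, SE 0.09, adjusted p = 2.8e-09). CD14 and PECAM1 did not pass 4.16 CPM in any of the 8 libraries, and both lie in intervals overlapped by another gene with more reads, so that the reads cannot be told apart from the neighbour's. TEK, a vessel marker in an interval that overlaps no other, lay at 22.8 to 29.6 CPM in these libraries, and ITGAM at 1.05 to 7.94 CPM. Neither was called. Of 8 markers of neurons and oligodendrocytes 3 rose and 1 fell (sums of 275 to 303 and 439 to 459 CPM). CNP, which rose by 0.75, held most of that sum, and the other genes that rose were SLC17A7 (1.45) and STMN2 (0.96), both at low levels. SYT1, at 23.7 to 30.9 CPM over the 8 libraries, was the gene that fell (by 0.22). Of 16 markers of epithelium and fibroblasts 8 rose and 2 fell (1436 to 1576 and 1925 to 1964 CPM), with COL1A1 higher by 1.04. The keratins KRT8 and KRT18, whose intervals overlap and share reads, rose from means of 594 and 373 CPM in scrambled to 826 and 523 CPM in siRNA-2 libraries.

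Among genes on no list, the smallest p-values of genes that changed at least 2-fold included OXTR, the oxytocin receptor. It measured 60.2, 62.4, 62.8 and 60.03 CPM in scrambled and 188, 187, 174 and 173 CPM in siRNA-2 libraries, a rise of 1.56 (SE 0.04, adjusted p = 4.7e-19). YWHAH, an adaptor for phosphorylated proteins, rose by 1.49, the mitochondrial thymidine kinase TK2 by 1.24, the adhesion protein neurofascin (NFASC) by 1.15, and DRAM1, a lysosomal protein that p53 induces, by 1.42 (SE 0.05, adjusted p = 8.7e-18). PDGFRL rose by 2.26. Of those that fell, GBE1, the branching enzyme of glycogen, fell by 1.12 (SE 0.04). The protein kinase C gene PRKCA fell by 1.09, PMEPA1, a feedback inhibitor of TGF-beta signalling, by 1.29, and KLHL5 by 1.14.

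siRNA-2 was then compared directly with siRNA-1, which carries another sequence against the same region. Of the 24884 genes 3934 were higher with siRNA-2 (15.8%) and 4181 lower (16.8%). Protein-coding genes fitted alone were called more often, in 43.8% of 14498 (3039 higher and 3314 lower) against 32.6% of all genes. The lists differed in direction. No respiratory chain gene was higher and 43 of 67 were lower with siRNA-2, and 30 of 42 coat and Golgi genes, 24 of 35 glycolysis and hypoxia genes and 20 of 31 cholesterol genes were lower. In contrast 16 of 29 p53 targets, 16 of 36 interferon effectors, 16 of 38 G2/M genes and 16 of 32 ERK feedback genes were higher, against 2, 0, 2 and 5 lower. These counts set the siRNAs against each other, and a list lower here need not have fallen against scrambled. Against scrambled, siRNA-2 gave 22 higher and 16 lower coat and Golgi genes. The same counts were 15 and 12 for glycolysis and hypoxia and 6 and 11 for cholesterol. HMGCS1 was lower than with siRNA-1 by 0.96 (SE 0.04, adjusted p = 1.5e-14), RPS6KA2, a kinase downstream of ERK, by 1.26 (SE 0.04, adjusted p = 6.0e-18), and CCL2 by 1.22 (SE 0.08, adjusted p = 7.1e-09). SERPINH1 was higher by 1.00 (SE 0.04, adjusted p = 7.1e-15), SEMA3B by 1.14 and CD68 by 1.11 (SE 0.09, adjusted p = 2.2e-06). No difference between the siRNAs was called for C1R (-0.03, SE 0.05, adjusted p = 0.72), HSP90AA1 (0.01, SE 0.03, adjusted p = 0.84), RPS4X (-0.01, SE 0.04, adjusted p = 0.85) or CDK6 (-0.07, SE 0.05, adjusted p = 0.29). siRNA-1 replicate 3 held 14.3% ribosomal RNA reads, and without it the respiratory chain count was 39 of 67 and the p53 target count 20 of 29.

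**Figure D4:**
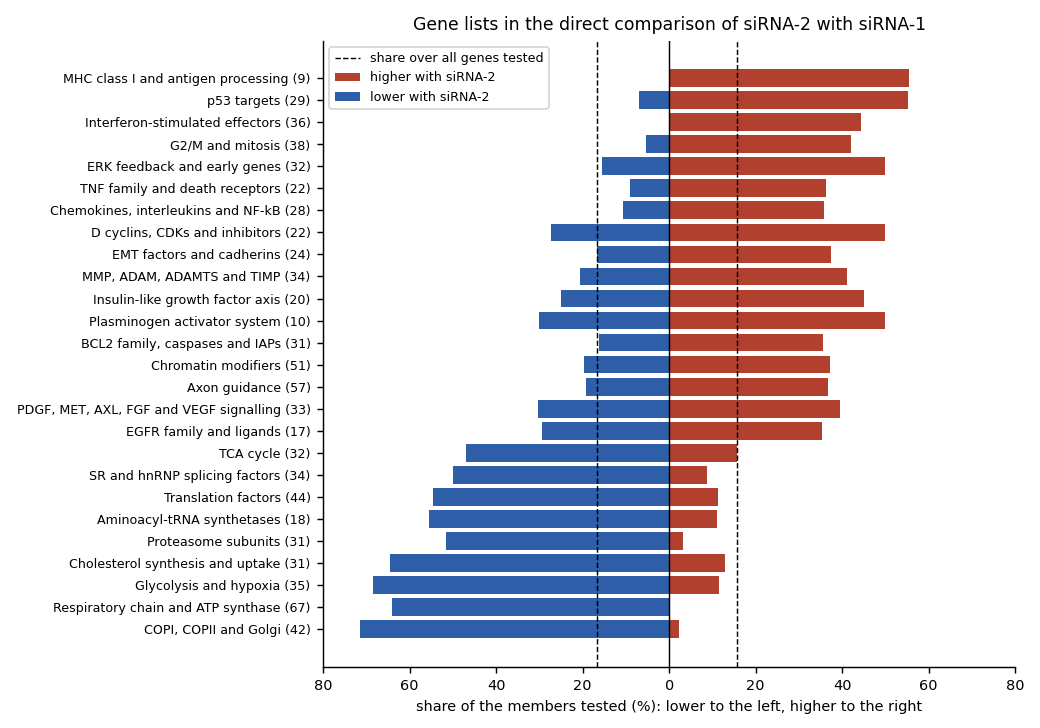
Share of tested members called lower (blue, to the left) or higher (red, to the right) with siRNA-2 than with siRNA-1, in percent, for the gene lists with at least 35% higher or 45% lower. Dashed lines mark the shares over all genes, 16.8% lower and 15.8% higher. Of protein-coding genes fitted alone 43.8% were called, against 32.6% of all genes. COPI, COPII and Golgi genes were lower in 71.4% and p53 targets higher in 55.2%.

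The direction of change also varied with the length and position of the gene. Of 1015 protein-coding genes with an interval under 5 kb 42.7% rose and 16.5% fell (median 0.18), and of 3065 over 100 kb 27% rose and 39.1% fell (median -0.09). The share that fell grew in each length class, while the share that rose was 42.8% from 5 to 20 kb and declined after that. Chromosome 19 stood apart, with 549 of 1046 genes higher (52.5%) and 124 lower (11.9%), against 34% and 32.4% on the other chromosomes. Within the class of 20 to 50 kb 54% of chromosome 19 genes rose and 11.3% fell, against 35% and 32.8% elsewhere. Under 5 kb 39.8% of 103 chromosome 19 genes rose, against 43% of 912 elsewhere. It was also present among genes at 5 log2 CPM or above (63.1% and 17.2%, against 36.4% and 40.4%). Zinc finger genes with a ZNF symbol did not lead it: of 219 on chromosome 19 27.9% rose, and of the other 827 genes 59% rose. Chromosomes 16 and 17 leaned the same way (45.3% and 47.7% higher), and chromosomes 13 and 18 the other (40.5% and 39.7% lower). Base composition was not measured, since no genome sequence was used, and its part in these differences was not tested.

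**Figure D5:**
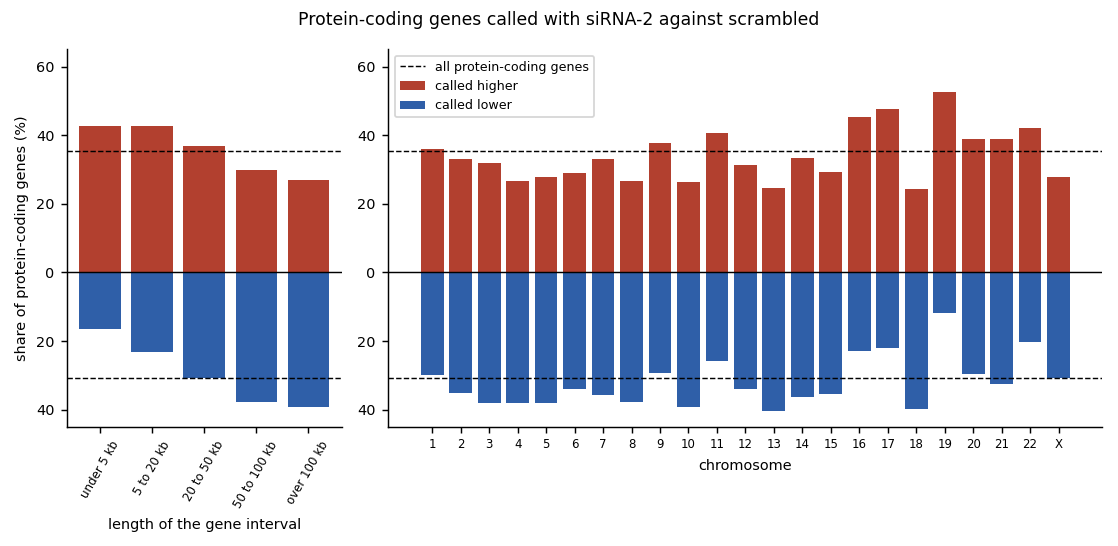
Share of protein-coding genes called higher (red, upwards) and lower (blue, downwards) with siRNA-2 against scrambled, in percent, by the length of the gene interval (left) and by chromosome (right). Dashed lines mark all protein-coding genes (35.4% higher, 30.9% lower). The share of falls grows from 16.5% under 5 kb to 39.1% over 100 kb, and chromosome 19 has the largest share of rises, 52.5%.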

How the data were processed

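RNA sequencing libraries of A172 cells were described from the table the authors deposited, which holds raw read counts per interval without normalization. Per the submitters' processing notes Salmon and the hg38 build were used; how the interval counts themselves were made is not given. Of 48769 gene intervals 4416 were left out: 1967 extending more than 100 kb past the annotated gene (most MHC genes among them), 1214 with counts identical to an overlapping interval, 1049 under an older name, 70 without a match and over 1 Mb, 47 of ribosomal RNA, 28 with a number for a name, 22 copies on chromosome Y and 19 second intervals. Of 2205 genes on the lists 125 had no usable interval.

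Genes were tested with edgeR 4.0.16 in R 4.3.3, using TMM factors, filterByExpr (minimum count 10, minimum total 15) and the quasi-likelihood test. The model held the 3 groups as its sole factor and took in the 12 libraries, so that the groups share an estimate of the spread. P-values were two-sided with Benjamini-Hochberg adjustment over all genes tested, and a gene was called at an adjusted p under 0.05. The SE was derived from the fold change and the square root of F. CPM uses TMM-scaled library sizes, except in the marker check, where plain totals were used. Counting intervals cover counting error only. On simulated data for siRNA-2 against scrambled with 24124 genes, the fit recovered 48 of 50 genes changed 1.5-fold and 50 of 50 changed 2-fold. It recovered 50 of 50 changed 4-fold and 49 of 50 lowered to 0.5, and called 13 of 23924 unchanged genes. In that simulation 23924 of the 24124 genes were unchanged, whereas 56.1% of the genes tested were called in the libraries. How the fit performs with so large a share of changed genes was not tested.

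The 62 gene lists, the naming rule and the tests were chosen with earlier results of these data known. The rule takes from each list up to 4 called members by p (average log2 CPM at least 1, groups apart, no overlapping interval with more reads) and the member with the greatest change against the majority, and 12 protein-coding genes on no list in each direction that changed at least 2-fold. It names 291 genes, of which the text gives those whose overlapping intervals hold at most 50% of their reads and that serve the description. Since the rule asks for groups that do not overlap, a constant direction of these genes says nothing of their stability. Alternatives were DESeq2 1.42.0 and its size factors within edgeR, no low-count filter, at least 1 CPM in 4 libraries, a fit of the 8 libraries, a replicate block, protein-coding genes, genes overlapping no other, and leaving out each library. Promoters are RefSeq entries (GRCh38.p14). CCN2, AMOTL2, ANKRD1, AXL as a YAP target, ETV1, JUNB, EGR1, IER2, TEK, ITGAM, SYT1, KRT8, KRT18, SLC17A7 and STMN2 were named after their values were seen. A few genes of the lists are not reported here by name.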

Additional observations from a re-analysis of the deposited data

Results flagged for a closer look

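Of the genes that the rule names and the text gives, 13 had 1 library that stood off from its group of 4. Its distance to its nearest neighbour took up most of the range of that group. Chance flags about 1 in 20 such groups, and here 13 of 316 were flagged. Scrambled replicate 1 was the high library for TRIM5 (94.77 CPM, the others at most 82.64), ISG20 (13.76 CPM, the others at most 9.607), IFIT1 (108.5 CPM, the others at most 45.02) and DUSP6 (13.26 CPM, the others at most 12.71). Scrambled replicate 4 was high for TNFSF4 (75.15 CPM) and LDHA (1056 CPM) and low for FANCD2 (54.45 CPM). siRNA-2 replicate 1 was high for IL11 (11.18 CPM) and JUN (152 CPM) and low for NLRC5 (47.42 CPM), ARSB (17.35 CPM), BNIP3L (45.2 CPM) and TET3 (23.07 CPM). The scrambled and siRNA-2 groups did not overlap in any of these genes.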

How the results depend on the processing

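The count of genes called for siRNA-2 against scrambled stayed within 1.5 times of 13970 under every alternative that kept most genes: it was 13736 with DESeq2 and 12990 to 13656 when a library, or scrambled replicate 1 together with siRNA-2 replicate 2 (chosen after seeing the data), was left out. Leaving out libraries gave 1488 to 1717 genes at least 2-fold higher and 624 to 717 at least 2-fold lower, and 7031 to 7462 called against siRNA-1. Counts moved further where fewer genes were tested by construction. With at least 1 CPM in 4 libraries 945 genes were at least 2-fold higher and 367 lower. With protein-coding genes alone 4856 were called higher and 4960 lower, a majority of falls where the fit of all genes gave 5129 rises and 4479 falls, with 850 at least 2-fold higher and 294 at least 2-fold lower. With the 8261 genes that overlap no other, 4542 were called, 2250 higher and 2292 lower, 726 and 261 of them at least 2-fold, and against siRNA-1 2559 were called, 1200 higher and 1359 lower. The share of called genes that were higher for siRNA-2 against scrambled was 49.5% to 53.6% over all alternatives. Replicate numbers were shared between groups, but same-numbered libraries deviated together with correlations of only 0.103, 0.0691, 0.118 and 0.0425, and 1 of the 4 correlated best with its own number, so the numbers were not taken to pair them. With a replicate block 13910 genes were called (7438 higher, 6472 lower), and 8035 against siRNA-1. Of 108 list counts of 5 or more, 99 moved by over 1.5 times with genes that overlap no other, where fewer members are tested, and 2 under another alternative (small nucleolar RNA host genes with protein-coding genes alone, and lipid synthesis without scrambled replicate 1 and siRNA-2 replicate 2). Depth limits uc.110 itself, with at most 6 reads in a library.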

Other observations

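Gene families grouped by the start of their symbols, after the values were seen, showed changes outside the lists. Of 55 histone genes of the genomic clusters, whose transcripts are made in S phase and mostly lack a poly(A) tail, 33 rose, none fell and 22 were not called, with a median log2 fold change of 0.97, while 26 of 43 G1/S genes fell. H2BC12 rose by 1.35 (SE 0.06), H4C15 by 1.86 (SE 0.12) and H1-2 by 1.09 (SE 0.06). The replication-independent histone genes went otherwise: of 13 tested 2 rose and 3 fell, and those that fell were H2AZ2 (by 0.95, SE 0.04), H2AZ1 (by 0.37, in an interval overlapped by another) and H3-3A (by 0.53, SE 0.05). Many clustered histone genes are near-identical copies whose reads can be split between them, and the library preparation's selection of RNA was not tested as a source of the difference.

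Of 36 HOX genes 22 rose and 6 fell. All 9 genes of the HOXB cluster rose, with log2 fold changes of 0.32 to 1.60, whereas HOXD8 (by 0.75, SE 0.07), HOXD9 (by 0.44) and HOXA9 (by 0.78) fell. Intervals within a HOX cluster overlap, so these are not independent measurements. Of 52 clustered protocadherin genes, which share exons and therefore reads, 21 fell and 1 rose. Among 18 tubulin genes 9 rose and 3 fell: TUBB4A rose by 1.39 (SE 0.06) and TUBB2A by 0.62, and TUBA1A, the abundant neuronal alpha tubulin, fell by 0.54.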
